A study of Mus musculus with 8 samples.

Results

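Complex I of the mitochondrial respiratory chain was followed through the pancreas of mice with and without the gene Bach2, by way of the nuclear genes that encode its subunits and the proteins that assemble it. The genes were chosen by name, as all protein-coding entries of the gene table whose symbol begins with Nduf, which gave 47 of 21434 genes. Of these, 39 are subunits by name and 8 are assembly factors, whose symbols begin with Ndufaf. All 47 passed edgeR's filter on low counts, which left 12820 genes for testing.

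Complex I, or NADH:ubiquinone oxidoreductase, takes electrons from NADH, passes them along a chain of iron-sulfur clusters to ubiquinone and couples this transfer to the pumping of protons across the inner mitochondrial membrane. It has the shape of an L: a peripheral arm in the matrix holds the NADH-oxidising module and the ubiquinone-binding (Q) module, and a membrane arm holds the proton pumps, whose central proteins are encoded in the mitochondrial DNA. Acinar cells, which make up most of the pancreas and synthesise and secrete digestive enzymes, draw on oxidative phosphorylation for the ATP that this work consumes.

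RNA sequencing covered pancreatic tissue of 4 Bach2WT and 4 Bach2KO mice, with 2 females (mice 1 and 2) and 2 males (mice 3 and 4) per genotype. All mice were of the strain C57BL/6N-Bach2tm1b(EUCOMM)Wtsi/leg, 18 weeks old and untreated. Bach2KO mice lacked Bach2, a transcriptional repressor of lymphocytes, constitutively and in the whole body, so that the pancreas and the immune cells within it carried the same deletion, and Bach2WT mice had the wild-type gene. The comparison of the genotypes asks how the loss of Bach2 goes with gene expression in the pancreas.

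The libraries held 72299745 to 172029360 counts on genes. Pancreatic identity was clear, since all 13 acinar cell markers were detected in every group and the digestive enzymes alone took 84.9% to 87.0% of the counts in Bach2KO mice and 86.7% to 88.4% in Bach2WT mice. Bach2 itself had 3 to 16 counts in the Bach2KO and 4 to 31 in the Bach2WT libraries, too few to check the labels (two-sided exact permutation test on CPM, p = 0.943, n = 4 each). The library of Bach2KO mouse 3 stood apart. Its score on the first principal component of all genes was 101.8, where the other 7 scored -34.8 to 7.2. Some of the counts and calls that change without this mouse are named beside the results below. Counts are given as CPM, counts per 1000000 counts of the library after TMM normalization, a scaling that assumes that most genes keep their level.

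Complex I subunits stood lower in Bach2KO than in Bach2WT pancreas relative to the other genes, in a shift that was shared by many members and small for each. Many subunits also rose and fell together between mice of the same genotype (median correlation of a subunit with the others 0.681). The correlations ran from -0.686 for Ndufs1 and -0.557 for Ndufs4 to 0.972 for Ndufs6, and those of other genes were not computed. Counts of members are therefore not counts of independent observations. The log2 fold change was below 0 for 33 of 39 subunits, where 45.3% of all genes tested were below 0 and 54.7% above, and the median subunit lay at -0.34 against 0.05 for the median gene. Of the 47 members, 15 were lower in Bach2KO mice at an unadjusted p under 0.05 and none was higher, beside 3.56% of all genes called lower and 3.9% called higher. All 15 were subunits, and their mean CPM differed from that of Bach2WT mice by -42.7% to -21.0%. None passed an adjusted p of 0.05 in edgeR's quasi-likelihood test with Benjamini-Hochberg adjustment, in which 0% of all genes were called lower and 0.0078% (1 gene) higher. DESeq2 put 1 member past this threshold, Ndufa3, with an adjusted p of 0.0299. In bulk tissue, fewer cells of a type and less RNA per cell cannot be told apart.

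The number of calls depended on single mice, and the share of all genes called lower moved with it. Leaving out Bach2WT mouse 2 reduced the members called from 15 to 6, beside 2.14% of all genes. Leaving out Bach2KO mouse 2 or Bach2WT mouse 4 gave 8, beside 2.11% and 2.36%, and leaving out Bach2KO mouse 1 gave 9, beside 2.43%. Without Bach2KO mouse 3 there were 22 such members, beside 4.61% of all genes. Ndufb4 was then no longer called (-0.42, unadjusted p = 0.0562, adjusted p = 0.629). The subunits Ndufb2 (-1.16), Ndufs6 (-0.49), Ndufa2 (-0.43), Ndufs5 (-0.43) and Ndufb5 (-0.42) were called in addition, with adjusted p-values of 0.430 to 0.591, as were 3 assembly factors. The median of the subunits remained below 0 in each of these cases and ranged from -0.42 to -0.22.

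**Figure D1:**
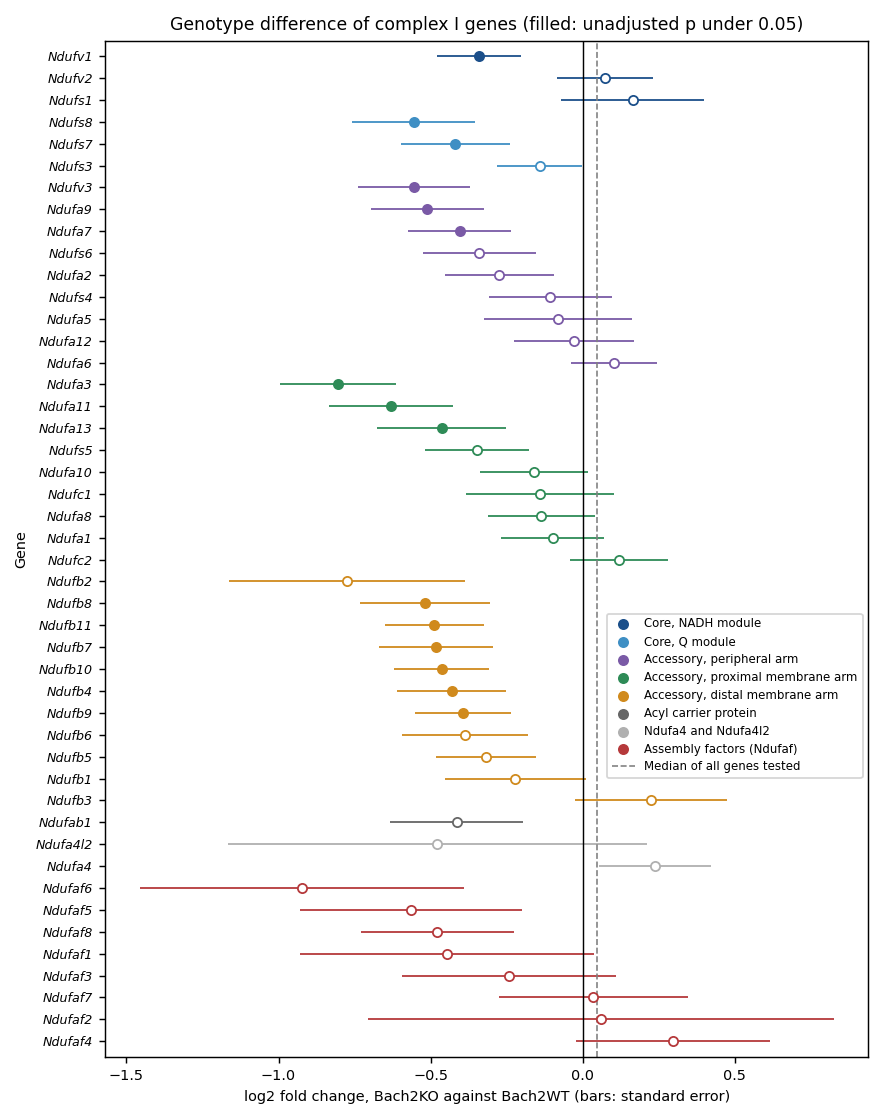
Log2 fold change of 46 of the 47 complex I genes, Bach2KO against Bach2WT (x axis), with 1 gene per line grouped by role. Bars are standard errors, filled points have an unadjusted p under 0.05 in edgeR, and the dashed line is the median of all 12820 genes tested. Points of 37 of the 46 genes drawn lie left of 0, and the 15 filled points all belong to subunits.

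The size of this shift, and the sign for some members, depended on what the counts were scaled to. TMM factors were 1.05 to 1.18 in Bach2KO and 0.826 to 1.10 in Bach2WT libraries, so that TMM itself lowered Bach2KO values against total counts. With total counts alone, a scaling added after seeing the data, the median of all genes moved to 0.35, the median subunit lay at -0.03, 22 of 39 subunits were below 0, only Ndufa3 was lower at an unadjusted p under 0.05 (0.367% of all genes), and 4 members (Ndufa4, Ndufc2, Ndufa6 and Ndufv2) were higher (12.4% of all genes). A scaling moves all genes of a library alike, so the distance of the subunit median from that of all genes is almost fixed by construction. It was -0.389 with TMM, -0.375 with total counts and -0.378 with the counts outside the digestive enzymes. The fold changes below are shifts relative to the bulk of the genes.

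The same holds for the sum of the members. Per 1000000 counts of the library, the 47 genes took 531, 529, 608 and 598 counts in Bach2KO mice 1 to 4 and 579, 638, 526 and 553 in Bach2WT mice 1 to 4, and the ranges of the genotypes overlapped. Per 1000000 counts outside the digestive enzymes they took 3762, 4051, 4205 and 3972 in Bach2KO mice and 4472, 4780, 4526 and 4465 in Bach2WT mice. Against this total every Bach2KO mouse lay below every Bach2WT mouse, with means of 3998 ± 185 and 4561 ± 149 (SD, n = 4 each).

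**Figure D2:**
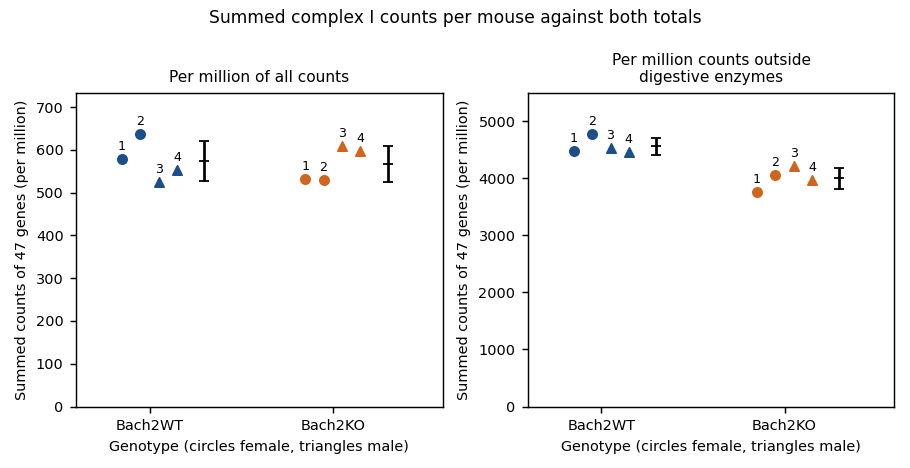
Summed counts of the 47 complex I genes in each mouse (y axis, per 1000000 counts) against all counts (left) and against the counts outside the digestive enzymes (right). Numbers name the mice, circles are females and triangles males, and the bars at the side give mean and SD. The genotypes overlap on the left, while on the right Bach2KO mice lie at 3762 to 4205 and Bach2WT mice at 4465 to 4780.

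Members from both arms of the complex were among the 15. The membrane arm had 9 of its 20 accessory subunits called lower and a median of -0.39, and the peripheral arm 6 of 16 with a median of -0.23. These counts and those per role below stand beside 45.3% of all genes below 0 and 3.56% called lower with all mice. By role, the accessory subunits of the distal membrane arm (Ndufb1 to Ndufb11, around the outer proton pumps) had 6 of 11 called and the lowest group median, -0.43. Without Bach2KO mouse 3, 11 subunits of the membrane arm and 8 of the peripheral arm were called lower, beside 4.61% of all genes. The differences between the groups were not tested.

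Ndufa3, a small accessory subunit in the membrane arm near its junction with the peripheral arm, had the smallest p of all members. It is encoded on chromosome 7 of GRCm39 at 3620372-3623326 on the plus strand. In Bach2KO mice 1 to 4 it stood at 7.81, 9.24, 12.5 and 10.8 CPM, and in Bach2WT mice 1 to 4 at 13.4, 20.5, 16.9 and 19.6 CPM. The genotypes did not overlap, and the lowest wild-type value came from the female mouse 1. The log2 fold change was -0.80 ± 0.19 (SE; unadjusted p = 0.00101, adjusted p = 0.352, edgeR). Under the 19 other settings and left-out mice the unadjusted p remained under 0.05 each time, with fold changes between -0.94 and -0.49 and adjusted p-values between 0.0299 and 0.724.

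Its promoter is shown because Ndufa3 had the smallest p, together with those of Ndufa11 and Ndufv3, the subunits with the next smallest p. Each sequence runs 5′ to 3′ over 300 bases around the RefSeq gene start, which is base 251, in GRCm38.p6, a different build from that of the count table. Capitals mark a match to the motif of NRF1 (GCGCA and GCGC, with any 1 base in between) or YY1 (AAGATGGC), factors known for binding at promoters of nuclear mitochondrial genes.
Ndufa3, chr7:3617123-3617422, plus strand: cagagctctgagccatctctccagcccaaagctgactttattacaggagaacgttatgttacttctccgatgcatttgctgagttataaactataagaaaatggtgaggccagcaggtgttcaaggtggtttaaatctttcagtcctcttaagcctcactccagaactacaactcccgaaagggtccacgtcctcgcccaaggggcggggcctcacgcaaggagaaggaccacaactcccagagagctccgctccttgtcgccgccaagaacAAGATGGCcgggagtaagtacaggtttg
Ndufa11, chr17:56717512-56717811, plus strand: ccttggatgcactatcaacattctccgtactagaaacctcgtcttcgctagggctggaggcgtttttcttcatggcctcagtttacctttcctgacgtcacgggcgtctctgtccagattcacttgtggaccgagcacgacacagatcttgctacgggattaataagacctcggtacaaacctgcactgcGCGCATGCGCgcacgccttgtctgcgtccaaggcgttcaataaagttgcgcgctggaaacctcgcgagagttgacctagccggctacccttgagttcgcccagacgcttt
Ndufv3, chr17:31519865-31520164, plus strand: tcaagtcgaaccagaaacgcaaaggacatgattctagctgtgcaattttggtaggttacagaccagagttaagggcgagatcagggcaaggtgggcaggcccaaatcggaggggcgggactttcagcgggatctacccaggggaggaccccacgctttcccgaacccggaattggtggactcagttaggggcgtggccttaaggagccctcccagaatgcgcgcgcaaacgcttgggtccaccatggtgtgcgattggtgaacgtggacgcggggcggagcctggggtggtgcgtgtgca

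The YY1 motif of Ndufa3 begins 22 bases after the gene start and the NRF1 motif of Ndufa11 begins 60 bases before it. Neither motif occurs in these letters of the Ndufv3 window. RefSeq promoters were matched for 41 of 47 members, 34 of them subunits, and searched on both strands, each motif on its own. The YY1 motif was in 7 of the 34 subunit promoters (20.6%), against 5.2% of 9557 promoters of tested genes and 3.19% of all 27025. Promoters with this motif belonged to Ndufa3, Ndufa9, Ndufb8 and Ndufs7 among the 14 called subunits with a promoter and to Ndufc1, Ndufs4 and Ndufs6 among the 20 others. The NRF1 motif was likewise in 7 (20.6%), against 11.3% of tested genes and 5.19% of all, in Ndufa11 and Ndufb4 among the called subunits and in Ndufa5, Ndufa6, Ndufa8, Ndufs5 and Ndufs6 among the others. An ETS motif (CCGGAAG) was in 4 subunit promoters (11.8%; 20.0% of tested genes), the GC box GGGCGG in 15 (44.1%; 69.3%) and CCAAT in 10 (29.4%; 42.2%). These matches describe the letters in the windows and were not tested against the fold changes.

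The core subunits, conserved from bacteria to mammals, carry the flavin and the iron-sulfur clusters or pump the protons, and part of them is encoded in the nucleus. In the NADH module, Ndufv1, which binds the flavin and oxidises NADH, stood at 28.3, 28.0, 30.0 and 28.4 CPM in Bach2KO mice 1 to 4 and at 31.5, 39.1, 37.1 and 37.3 CPM in Bach2WT mice 1 to 4. Its values did not overlap between genotypes (log2 fold change -0.34 ± 0.14 SE, unadjusted p = 0.0274, adjusted p = 0.636), and the Bach2KO mice lay within 2.05 CPM of each other. The other 2 core subunits of this module lay near 0, while its accessory subunit Ndufv3, given below, was lower (-0.55). Ndufv2, an iron-sulfur subunit, stood at 10.8, 10.2, 10.6 and 10.7 CPM in Bach2KO mice and 7.92, 11.7, 9.90 and 10.6 CPM in Bach2WT mice (log2 fold change 0.07 ± 0.16, adjusted p = 0.960). Ndufs1, the largest core subunit, with several iron-sulfur clusters, had 2.60, 3.16, 1.82 and 2.25 CPM in Bach2KO mice and 2.71, 2.16, 2.05 and 1.86 CPM in Bach2WT mice (log2 fold change 0.16 ± 0.23, adjusted p = 0.933). For both genes the ranges of the genotypes overlapped.

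In the Q module, where electrons reach ubiquinone, the core subunits Ndufs8, Ndufs7 and Ndufs3 had a log2 fold change below 0, and the first 2 had an unadjusted p under 0.05. Ndufs8, which holds iron-sulfur clusters on the way to ubiquinone, stood at 9.15, 15.7, 15.2 and 13.7 CPM in Bach2KO mice and 14.7, 22.2, 18.7 and 23.4 CPM in Bach2WT mice (log2 fold change -0.56 ± 0.20, unadjusted p = 0.0169, adjusted p = 0.602). Ndufs7, which holds the last iron-sulfur cluster before ubiquinone, stood at 13.8, 18.2, 22.0 and 17.9 CPM in Bach2KO mice and 18.9, 27.6, 23.5 and 26.1 CPM in Bach2WT mice (log2 fold change -0.42 ± 0.18, unadjusted p = 0.0358, adjusted p = 0.649). In both genes only the Bach2WT female mouse 1 fell into the range of Bach2KO mice. Ndufs3, a structural subunit of this module, had 13.5, 14.4, 14.5 and 14.0 CPM in Bach2KO mice and 13.9, 16.7, 16.4 and 15.3 CPM in Bach2WT mice (log2 fold change -0.14 ± 0.14, adjusted p = 0.884). Its ranges overlapped between the genotypes.

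Accessory subunits surround the core, and many of them are needed for its assembly and stability. In the peripheral arm, 8 of 9 were below 0 and 3 had an unadjusted p under 0.05: Ndufv3 of the NADH module (-0.55, unadjusted p = 0.00973, adjusted p = 0.539), Ndufa9, which binds a nicotinamide nucleotide beside the Q module (-0.51, unadjusted p = 0.0166, adjusted p = 0.602), and Ndufa7 (-0.41, unadjusted p = 0.033, adjusted p = 0.643). The other members of this group, Ndufs6, Ndufa2, Ndufs4, Ndufa5, Ndufa12 and Ndufa6, lay between -0.34 and 0.10. For Ndufa12 the assignment of reads is uncertain, since the processed pseudogene Ndufa12-ps had 5.22 CPM in Bach2KO and 7.56 CPM in Bach2WT mice beside 8.36 and 8.52 CPM for the gene.

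In the proximal membrane arm, 8 of 9 accessory subunits were below 0, and Ndufa3, Ndufa11 and Ndufa13 had an unadjusted p under 0.05. Ndufa11, a membrane subunit at the contact with complex III in supercomplexes, stood at 5.24, 6.97, 9.22 and 7.75 CPM in Bach2KO mice and at 9.03, 10.8, 10.8 and 14.5 CPM in Bach2WT mice. Only Bach2KO mouse 3 exceeded the lowest wild-type mouse (log2 fold change -0.63 ± 0.20, unadjusted p = 0.00853, adjusted p = 0.534). Ndufa11 overlaps the gene Vmac on the opposite strand by 256 bases. The values of Ndufs5 did not overlap between the genotypes, with 6.01 to 8.98 CPM in Bach2KO and 9.12 to 11.4 CPM in Bach2WT mice. Its unadjusted p was nevertheless 0.0617 (log2 fold change -0.35 ± 0.17).

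In the distal membrane arm, 10 of 11 subunits were below 0. Those with an unadjusted p under 0.05 were Ndufb11, Ndufb10, Ndufb7, Ndufb9, Ndufb8 and Ndufb4, with log2 fold changes from -0.52 to -0.39. Ndufb10, which faces the intermembrane space, had 16.7, 18.8, 18.8 and 19.4 CPM in Bach2KO mice and 22.9, 30.7, 21.3 and 26.8 CPM in Bach2WT mice. All Bach2KO values lay below all Bach2WT values (log2 fold change -0.46 ± 0.16, unadjusted p = 0.0108, adjusted p = 0.547). Ndufb11, a single-pass membrane protein, had 36.4, 42.0, 42.9 and 40.5 CPM in Bach2KO mice and 42.8, 68.2, 56.8 and 59.1 CPM in Bach2WT mice (log2 fold change -0.49 ± 0.16, unadjusted p = 0.00998, adjusted p = 0.541). Here Bach2KO mouse 3 and Bach2WT mouse 1 were almost level, and all other mice were apart. Ndufb3 was the only member of this group above 0, with 3.48, 3.00, 6.79 and 4.65 CPM in Bach2KO mice and 3.57, 3.89, 4.67 and 3.17 CPM in Bach2WT mice (log2 fold change 0.22 ± 0.25, adjusted p = 0.911), and its highest value came from Bach2KO mouse 3. Without this mouse its log2 fold change was -0.06 (adjusted p = 0.967), and all 11 were below 0.

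In all, 4 members did not overlap between the genotypes (Ndufa3, Ndufb10, Ndufv1 and Ndufs5), all lower in Bach2KO mice, beside 1.92% of all genes tested that did so lower and 2.57% higher. Without Bach2KO mouse 3 there were 18, beside 4.52% of all genes, and without Bach2WT mouse 1 there were 21, beside 5.51%. Groups of 3 and 4 mice part more easily than groups of 4, and these are the mice closest to the other genotype.

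**Figure D3:**
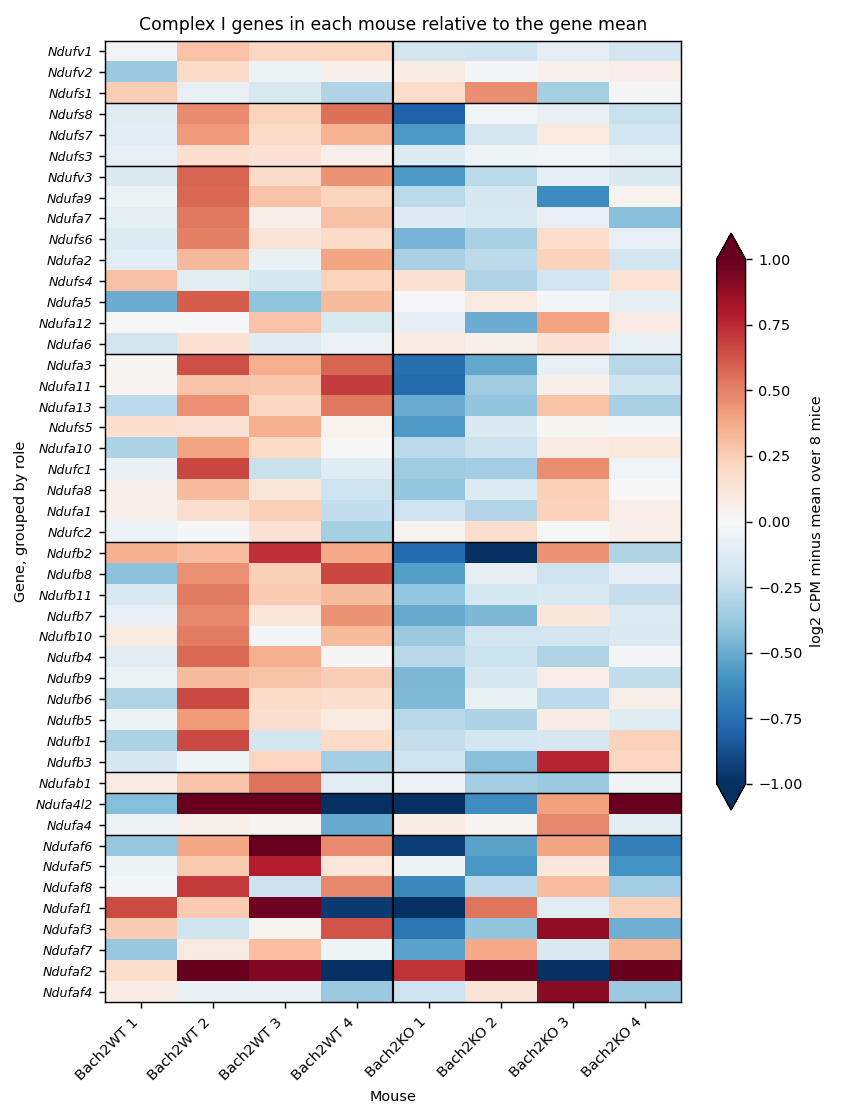
Level of 46 of the 47 complex I genes in each mouse (columns) as log2 CPM minus the mean of that gene over the 8 mice, with genes in rows grouped by role and the genotypes parted by a vertical line. Blue is below and red above the gene mean, and colours end at 1 in either direction. Of all 39 subunits, 33, 34, 19 and 27 lie below their mean in Bach2KO mice 1 to 4 and 29, 5, 9 and 11 in Bach2WT mice 1 to 4.

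The level of the median subunit differed between mice of the same genotype. Relative to the gene mean, the median subunit lay at -0.28, -0.19 and -0.08 on the log2 scale in Bach2KO mice 1, 2 and 4 and at 0.01 in mouse 3. In Bach2WT mice it lay at 0.39, 0.19 and 0.19 in mice 2, 3 and 4 and at -0.09 in mouse 1. Bach2WT mouse 1 thus resembled the Bach2KO group and Bach2KO mouse 3 lay between the groups. The called subunits had a median of 24.0 CPM in Bach2WT mice (10.8 to 56.7) and the other 24 a median of 8.25 CPM (0.448 to 33.7), so the ranges overlapped, and the median standard error was 0.18 and 0.19.

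Ndufab1 and the Ndufa4 pair have functions outside complex I. Ndufab1, the mitochondrial acyl carrier protein, which also serves in fatty acid synthesis, had a log2 fold change of -0.41 ± 0.22 (unadjusted p = 0.0806, adjusted p = 0.721). Ndufa4, named as a complex I subunit but now known as a subunit of complex IV, had 8.02, 7.73, 10.6 and 7.06 CPM in Bach2KO mice and 7.33, 7.86, 7.75 and 5.36 CPM in Bach2WT mice. It had the highest fitted fold change of the subunits and did not separate the genotypes (0.24 ± 0.19, adjusted p = 0.837). Its paralogue Ndufa4l2, known for its induction in hypoxia, had only 8 to 117 counts per library and a log2 fold change of -0.48 ± 0.69 (adjusted p = 0.933).

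Assembly factors act on intermediates of the complex and are absent from the finished enzyme. Of the 8 Ndufaf genes, 5 were below 0 and none had an unadjusted p under 0.05 in either direction. Of all genes tested, 45.3% were below 0, 3.56% were called lower and 3.9% higher. The median log2 fold change of the 8 Ndufaf genes, -0.34, was close to that of the subunits. It moved between -0.58 (without Bach2KO mouse 3) and -0.11 (without Bach2KO mouse 1) when single mice were left out and to -0.07 with total counts alone. Without Bach2KO mouse 3, 6 were below 0 and 3 were called lower, beside 4.61% of all genes called lower. These 3 were Ndufaf8 (-0.71, unadjusted p = 0.0128, adjusted p = 0.473), Ndufaf3 (-0.76, unadjusted p = 0.015, adjusted p = 0.497) and Ndufaf6 (-1.30, unadjusted p = 0.0356, adjusted p = 0.585). The 8 assembly factors were scarcer than the subunits, with a median FPKM in Bach2WT mice of 0.414 against 7.60 (fragments per kilobase of gene, normalized by library), and their median standard error was 0.36 against 0.19.

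Among factors of early assembly, Ndufaf1, which works in the membrane arm, stood at 0.241, 1.05, 0.674 and 0.855 CPM in Bach2KO mice and 1.14, 0.869, 1.42 and 0.374 CPM in Bach2WT mice (log2 fold change -0.45 ± 0.48, adjusted p = 0.908). Ndufaf3 had 1.10, 1.39, 3.38 and 1.30 CPM in Bach2KO mice and 2.18, 1.59, 1.87 and 2.82 CPM in Bach2WT mice (-0.24 ± 0.35, adjusted p = 0.933). Its partner Ndufaf4 had 1.04, 1.30, 2.23 and 0.922 CPM in Bach2KO mice and 1.26, 1.14, 1.14 and 0.922 CPM in Bach2WT mice (0.30 ± 0.32, adjusted p = 0.907). In both Ndufaf3 and Ndufaf4, the highest Bach2KO value came from mouse 3, without which Ndufaf4 lay at -0.06 (adjusted p = 0.978).

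Ndufaf5 hydroxylates Ndufs7 and had 0.612, 0.423, 0.687 and 0.420 CPM in Bach2KO mice and 0.611, 0.762, 1.09 and 0.691 CPM in Bach2WT mice (-0.57 ± 0.36, adjusted p = 0.788). Its partner Ndufaf8 had 2.79, 3.65, 5.43 and 3.44 CPM in Bach2KO mice and 4.32, 7.10, 3.77 and 6.09 CPM in Bach2WT mice (-0.48 ± 0.25, unadjusted p = 0.0785, adjusted p = 0.719). Both pairs of ranges overlapped, for Ndufaf8 only through Bach2KO mouse 3. Ndufaf7, a methyltransferase, had 0.704, 1.33, 0.925 and 1.29 CPM in Bach2KO mice and 0.789, 1.09, 1.26 and 0.994 CPM in Bach2WT mice (0.03 ± 0.31, adjusted p = 0.991).

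Ndufaf6 had the lowest fitted fold change of all 47 members and a wide error. It stood at 0.173, 0.230, 0.436 and 0.207 CPM in Bach2KO mice and 0.255, 0.434, 0.808 and 0.461 CPM in Bach2WT mice, from 19 to 116 counts per library (-0.92 ± 0.53, adjusted p = 0.764). Ndufaf2, a paralogue of Ndufa12 that acts late in assembly, had 0.568, 0.676, 0.0793 and 0.866 CPM in Bach2KO mice and 0.389, 1.02, 0.655 and 0.0288 CPM in Bach2WT mice (0.06 ± 0.77, adjusted p = 0.997). Each genotype held 1 male mouse with very few Ndufaf2 counts, 6 in Bach2KO mouse 3 and 2 in Bach2WT mouse 4.

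Levels of different genes can be compared per gene length, as FPKM. The order of the subunits in Bach2WT mice began with Ndufb11 at 61.6 ± 11.6 FPKM and Ndufa1 at 46.2 ± 6.53 FPKM (SD, n = 4). In single mice, Ndufb11 had 38.1, 44.7, 46.4 and 43.6 FPKM in Bach2KO and 46.0, 73.9, 62.0 and 64.6 FPKM in Bach2WT mice, and Ndufa1, a small membrane subunit, 36.9, 35.3, 51.6 and 45.9 FPKM and 45.4, 49.4, 52.4 and 37.4 FPKM. At the lower end stood the core subunit Ndufs1 with 0.305, 0.379, 0.222 and 0.272 FPKM in Bach2KO and 0.327, 0.263, 0.252 and 0.228 FPKM in Bach2WT mice. Last came Ndufb2 of the distal membrane arm with 0.0687, 0.0540, 0.166 and 0.0981 FPKM in Bach2KO and 0.154, 0.151, 0.204 and 0.160 FPKM in Bach2WT mice. The means of the first and the last gene differed 369-fold in Bach2WT mice, although the encoded proteins occur in 1 complex.

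Of the 39 subunits, 17 had a mean above 10 FPKM in Bach2WT mice, 18 lay between 1 and 10 FPKM, and 4 below 1 FPKM, namely Ndufa4l2, Ndufab1, Ndufs1 and Ndufb2. The last 3 carry long gene lengths in the table, 6883, 8086 and 5628 bases against 908 for Ndufb11 and 419 for Ndufa1, and FPKM divides by this length. The part of these lengths in the order was not tested. Only 7 of 38 neighbours in the order differed by more than the larger of their SDs, so most places in it are not resolved. The ranks were similar in Bach2KO mice, and the first 7 genes kept their places (Ndufb11, Ndufa1, Ndufa13, Ndufa2, Ndufs6, Ndufb9 and Ndufb10), while Ndufa3 moved from rank 8 to rank 14.

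**Figure D4:**
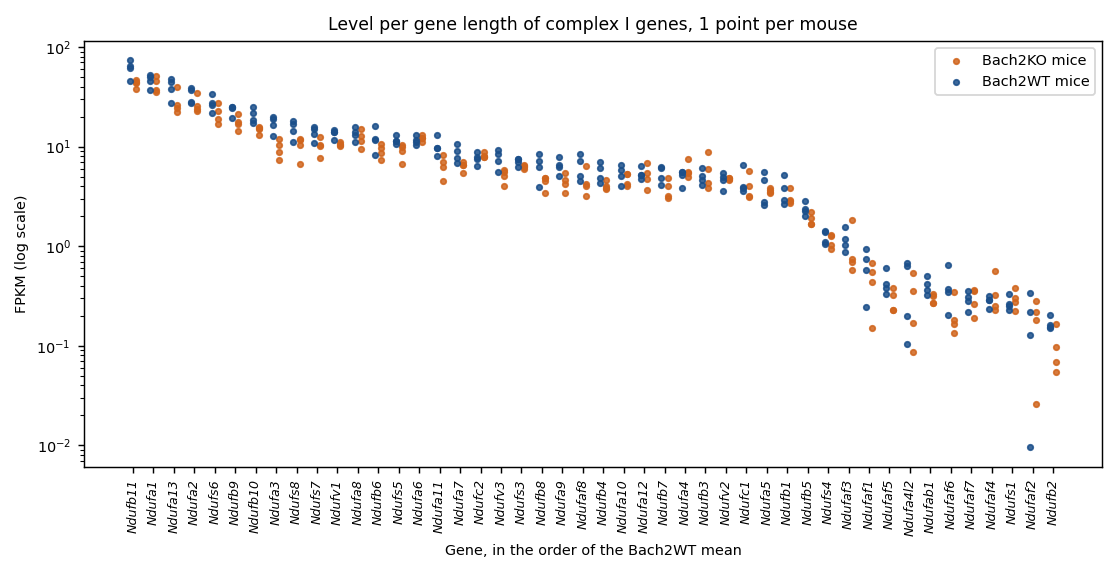
FPKM of 46 of the 47 complex I genes (y axis, log scale) with 1 point per mouse, blue for Bach2WT and orange for Bach2KO, ordered by the Bach2WT mean. The means of the subunits run from 61.6 FPKM for Ndufb11 to 0.167 FPKM for Ndufb2, and the assembly factors stand mostly at the right end.

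Sex was the other variable of the design. Within females, 34 of 39 subunits had a lower mean log2 CPM in Bach2KO mice, with a median difference of -0.43 against 0.06 for all genes. Within males, 27 of 39 did, with a median of -0.20 against 0.02, and the same 27 were lower in both sexes. These are means of 2 mice each. Bach2KO mouse 3, which stood apart, is 1 of the 2 Bach2KO males.

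The difference between the sexes was tested by the interaction of sex and genotype. It had an unadjusted p under 0.05 for 1 of 47 members, beside 6.14% of all genes tested, and no gene passed after adjustment (0%). This member was Ndufc1, a small membrane subunit, with 4.90, 4.95, 8.69 and 6.15 CPM in Bach2KO mice 1 to 4 and 6.00, 10.0, 5.39 and 5.79 CPM in Bach2WT mice 1 to 4. It was lower in Bach2KO females and higher in Bach2KO males than in the wild-type mice of the same sex (interaction 1.11 ± 0.40 on the log2 scale, unadjusted p = 0.0176, adjusted p = 0.793). Next came Ndufa8, a subunit with disulfide bonds in the intermembrane space, with 8.52, 10.1, 13.1 and 11.2 CPM in Bach2KO mice and 11.5, 13.8, 12.1 and 9.63 CPM in Bach2WT mice (interaction 0.60 ± 0.33, unadjusted p = 0.0928, adjusted p = 0.851). For both genes the highest Bach2KO value came from mouse 3. No member had an interaction at this threshold without it or without Bach2WT mouse 2, which had the highest Ndufc1 value, beside 3.82% and 5.15% of all genes.

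Between males and females, with genotype in the model, 1 member had an unadjusted p under 0.05, beside 5.29% of all genes, of which 0.0312% (4 genes) but no member passed after adjustment. Ndufa11 was higher in males by 0.41 on the log2 scale (unadjusted p = 0.035, adjusted p = 0.890). Second was Ndufb3, at 0.45 (unadjusted p = 0.0716, adjusted p = 0.890). Leaving out single mice gave 0 to 8 such members, with 8 without Bach2WT mouse 2, beside 9.01% of all genes.

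**Figure D5:**
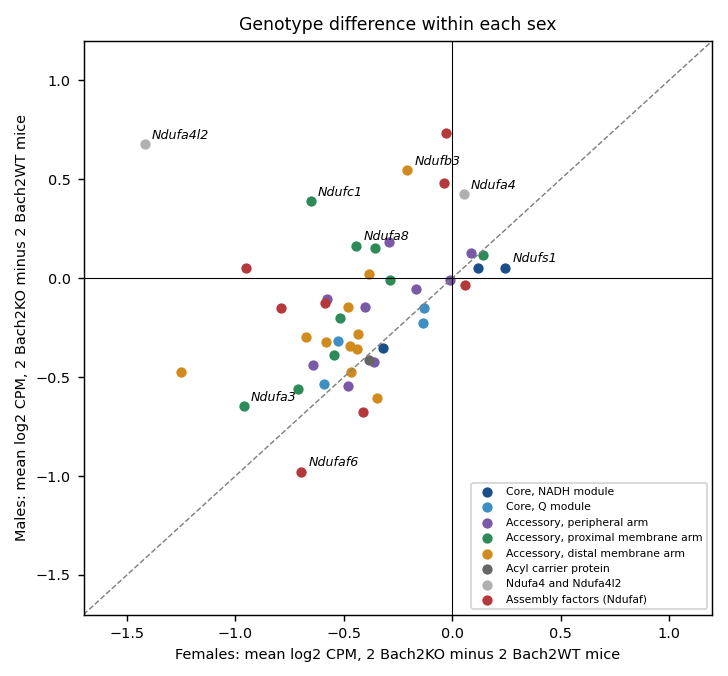
Difference of mean log2 CPM between 2 Bach2KO and 2 Bach2WT mice in females (x axis) and males (y axis), 1 point per complex I gene, coloured by role. Points on the dashed line have equal differences in both sexes. Of 39 subunits, 27 lie below 0 on both axes, and Ndufc1 lies at -0.65 in females and 0.39 in males.

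The remaining proteins of the complex and its surroundings are given by lists. The 7 subunits encoded in the mitochondrial DNA, which form the proton pumps, were all above 0 in the fit of all mice, with a median of 0.07, and none had an unadjusted p under 0.05. Without Bach2KO mouse 3 the direction turned: 6 of 7 were below 0, with a median of -0.44, and 5 were called lower, beside 4.61% of all genes. With all mice, the smallest p were those of mt-Nd3 (0.94 ± 0.55, adjusted p = 0.768) and mt-Nd6 (0.12 ± 0.33, adjusted p = 0.969). Their summed level was 603, 604, 1869 and 691 CPM in Bach2KO mice 1 to 4 and 834, 1106, 981 and 754 CPM in Bach2WT mice 1 to 4. Bach2KO mouse 3 alone was high, and the other Bach2KO mice lay below all Bach2WT mice. Libraries of poly-A RNA were made, and how fully they capture mitochondrial transcripts was not tested. In Bach2KO mouse 3 the summed nuclear subunits, 567 CPM, lay within the range of Bach2WT mice (514 to 729 CPM).

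Of 12 further assembly factors outside the Nduf names, 6 were below 0, the median was -0.01, and 1 had an unadjusted p under 0.05. This was Ecsit, a partner of Ndufaf1 in early assembly, with 3.13, 3.23, 3.83 and 3.08 CPM in Bach2KO mice and 4.13, 5.66, 6.17 and 4.69 CPM in Bach2WT mice, without overlap (log2 fold change -0.64 ± 0.19, unadjusted p = 0.00429, adjusted p = 0.513). The second was Tmem186 (0.52 ± 0.44, adjusted p = 0.857). Without Bach2KO mouse 3, 1 of the 12 was called lower and 1 higher, beside 632 and 472 of 13701 genes. Of 11 regulators of mitochondrial gene expression, 10 could be tested, 3 were below 0, the median was 0.19 and none had an unadjusted p under 0.05. The smallest p belonged to Nrf1, which encodes the factor whose motif was searched above (0.57 ± 0.34, adjusted p = 0.769), and to Polrmt, the mitochondrial RNA polymerase (0.26 ± 0.22, adjusted p = 0.857).

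The nuclear subunits of the other respiratory complexes lay on the same side as those of complex I. Their counts stand beside 45.3% of all genes below 0, 3.56% called lower and 3.9% called higher, as do those of the lists before and after them. Complex II had 3 of 4 subunits below 0 with a median of -0.28 and 1 called lower, and complex III had 8 of 9 below 0 with a median of -0.28 and 2 called lower. Complex IV had 9 of 11 below 0 with a median of -0.25, 3 called lower and 1 higher. ATP synthase, complex V, had 15 of 17 below 0 with a median of -0.25 and 4 called lower. Without Bach2KO mouse 3, complex II had 0 called lower, complex III 3 lower, complex IV 5 lower and 0 higher and ATP synthase 7 lower. Of all 13701 genes tested without this mouse, 632 (4.61%) were called lower and 472 higher. These numbers also stand beside the counts of the other lists without it. With all mice, the smallest p in complex II belonged to Sdhb (-0.31, unadjusted p = 0.0428, adjusted p = 0.663) and Sdha (-0.30, adjusted p = 0.743). In complex III they belonged to Uqcrc1 (-0.44, unadjusted p = 0.00759, adjusted p = 0.531) and Uqcr11 (-0.59, unadjusted p = 0.0194, adjusted p = 0.618). Complex IV was led by Cox7a2 (-0.44, unadjusted p = 0.0224) and by Cox7b with the opposite sign (0.41, unadjusted p = 0.0242; adjusted p = 0.627 for both). In ATP synthase the smallest p were those of Atp5h (-0.46, unadjusted p = 0.0114, adjusted p = 0.552) and Atp5o (-0.40, unadjusted p = 0.0297, adjusted p = 0.639). The shift in complex I was not tested against that of the other complexes.

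Markers of acinar cells lay on the same side as the subunits in the TMM-scaled values, which TMM itself lowered in Bach2KO mice. As a share of all counts, the digestive enzymes took 84.9% to 87.0% in Bach2KO and 86.7% to 88.4% in Bach2WT mice. Of 13 acinar markers, 11 were below 0 with a median of -0.30, and 4 had an unadjusted p under 0.05, all lower. Their summed level was 465000 to 526600 CPM in Bach2KO and 513800 to 676600 CPM in Bach2WT mice, and none was at 0. Of 36 digestive enzymes, 25 were below 0 with a median of -0.34, with 12 called lower and 3 higher. Without Bach2KO mouse 3, 11 enzymes were called lower and 5 higher, and 3 acinar markers lower. Markers of infiltrating cells were scarce: summed macrophage markers were 24.0 to 38.1 CPM in Bach2KO and 16.9 to 31.9 CPM in Bach2WT mice, T cell markers 1.12 to 3.59 and 0.293 to 2.55 CPM, and B cell markers 0.0264 to 1.93 and 0.320 to 5.11 CPM. Of the 9 macrophage markers, 7 were above 0 and 2 were called higher (Lyz2 and C1qb). Without Bach2KO mouse 3, 2 macrophage markers were called higher and 1 lower. All 7 tested T cell markers (of 10) were above 0 and none was called, and all 3 tested B cell markers (of 7) were below 0 and none was called. Summed markers of duct cells (21.3 to 29.9 against 17.4 to 25.9 CPM), islets (227 to 2021 against 184 to 2317 CPM), fibroblasts (27.3 to 54.6 against 25.2 to 66.0 CPM), adipocytes (2.43 to 7.14 against 1.67 to 18.6 CPM), brown adipocytes (0 to 0.461 against 0 to 0.432 CPM) and skeletal muscle (0.0483 to 0.498 against 0.306 to 0.480 CPM) overlapped between the genotypes. Of 5 tested adipocyte markers, 4 were below 0 with a median of -2.43, and 2 were called lower, Plin1 (-4.57, unadjusted p = 0.00144, adjusted p = 0.367), which did not overlap, and Car3 (-3.11, unadjusted p = 0.014, adjusted p = 0.593). All 5 also had an unadjusted p under 0.05 for sex in edgeR, beside 5.29% of all genes. Summed adipocyte markers were 18.6 and 17.0 CPM in the Bach2WT females and 2.81 and 1.67 CPM in the Bach2WT males. The duct marker Krt7 (0.57, unadjusted p = 0.0213, adjusted p = 0.627) and the islet marker Gcg (1.33, unadjusted p = 0.0422, adjusted p = 0.663) were called higher, and neither list held a call without Bach2KO mouse 3. The markers named here were chosen after their values were seen. The part of these cell types in the level of the complex I genes was not tested.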

How the data were processed

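RNA-seq of pancreatic tissue from 4 Bach2KO and 4 Bach2WT mice was analysed. The authors deposited 1 table with unnormalized counts per gene and library, a signal in which these counts were scaled by a size factor and FPKM values. Gene lengths are also given, together with the authors' log2 fold changes and p-values, which were not used. Submitters' processing notes name fastp, HISAT2 2.2.1, featureCounts 2.0.6 and mm39 (GRCm39). Libraries were made from poly-A RNA, and it is not stated whether they were directional, so reads of overlapping genes on opposite strands cannot be told apart. The deposited signal was not tested, since it derives from the same counts.

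The deposited counts were tested with edgeR 4.0.16 in R 4.3.3 (TMM, filterByExpr on genotype, quasi-likelihood test, no covariate, all 8 mice) over the whole table, with Benjamini-Hochberg adjustment over 12820 genes. Sex and its interaction with genotype were tested in models with both terms. Standard errors were derived from the F statistic and the fold change. The fit gave a common dispersion of 0.192 between mice of a group. Members had 2 to 8942 counts per library, and the p-values set a difference against the spread between mice. The procedure was run on simulated counts with log2 fold changes of 2 in size, up or down. The members lay between -0.92 and 0.30, so that run does not show how well shifts of their size are found.

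The members, lists and tests were chosen with earlier results of these data known. Named individually were members with an unadjusted p under 0.05 and no overlap, the core subunits, the 2 highest and 2 lowest subunits by FPKM, all Ndufaf genes, the 3 highest fold changes, the 2 smallest sex and interaction p, and the 2 smallest p of each other pathway list. Of the members, 1 is not reported here by itself and is left out of the plots by gene, but it is part of the counts, sums and medians over the members. Ndufs5 and the other called subunits were named after their values were seen. Alternatives were DESeq2 1.42.0, other filters on low counts, RLE normalization, libraries without the digestive enzymes, models with sex or a replicate block, offsets for length and for GC content (known for 99.35% of genes), leaving out each mouse, and 2 scalings without TMM factors that were added after seeing the data. Values of the arms and of the pathway and marker lists without Bach2KO mouse 3 were added later as well. Replicates differed far beyond sampling noise and were all kept. Promoters came from RefSeq GRCm38.p6.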

Additional observations from a re-analysis of the deposited data

Results flagged for a closer look

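Among 94 groups of 4 mice (47 genes in each genotype), 4 held a mouse whose gap to the nearest other mouse exceeded 0.829 of the range of its group, and chance gives about 1 in 20. In Bach2WT mouse 3, Ndufb2 stood at 1.16 CPM, with 0.861 to 0.907 CPM in the other Bach2WT mice. Ndufb1 stood at 4.51 CPM in Bach2KO mouse 4, with 3.27 to 3.43 CPM in the others. Ndufaf3 stood at 3.38 CPM in Bach2KO mouse 3, the library apart on the first principal component, with 1.10 to 1.39 CPM in the others. Ndufc1 stood at 10.0 CPM in Bach2WT mouse 2, with 5.39 to 6.00 CPM in the others.

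The genotype difference of Ndufc1 differed between the sexes by 1.11 on the log2 scale (edgeR interaction, unadjusted p = 0.0176, adjusted p = 0.793), and the value of Bach2WT mouse 2, a female, enters this difference.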

How the results depend on the processing

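Over 891 comparisons of single members with an alternative, 769 kept their direction and side of an unadjusted p of 0.05, 66 lost and 21 gained the call, 35 uncalled values changed sign, and no called value reversed. The number of members called lower, 15, was within 14 to 16 under DESeq2, RLE factors, library sizes without digestive enzymes, both other filters (the stricter one left 45 members to test), a sex term and the corrections for length and GC content. All genes called lower numbered 420 of 9867 with the stricter filter, 634 of 21434 without a filter and 469 to 556 in the others. Leaving out single mice gave 6 to 22 members, beside 2.14% and 4.61% of all genes. With total counts without TMM factors there were 1 lower and 4 higher members, beside 47 and 1595 of 12820 genes. The subunit median was -0.02986, with 2 members without overlap and 4 interactions. With counts outside the digestive enzymes without TMM factors there were 7 lower, beside 208 of 12797 genes, and 7 without overlap. Both scalings were chosen after seeing the data, and the median of all genes was 0.35 and 0.18 under them, against 0.05 with TMM. DESeq2 gave 1 member past an adjusted p of 0.05 where edgeR gave 0, and 15 members had an unadjusted p under 0.05 in each. Members without overlap numbered 7 after the length correction, 9 after the GC correction and 4 to 21 without single mice. Sex effects numbered 2 without the filter on low counts, 0 without genotype in the model, 0 after the length correction and 0 to 8 without single mice. Interactions numbered 3 after the GC correction and 0 to 3 without single mice. For overlaps, sex effects and interactions, shares of all genes are given above only with all mice and for some left-out mice. In the other settings, changes of the members and of the whole table cannot be told apart here. The causes of these changes were not tested. Same-numbered mice of the genotypes did not deviate together (correlations of 0.212, -0.0344, -0.0409 and -0.0543, with the best partner of the same number only for mice 1), so the numbers do not pair them. A replicate block gave 15 members called lower and 0 higher, beside 489 and 483 of 12820 genes, with Ndufb2 gained and Ndufa7 lost. It was not run for the sexes, which are constant within a number, or for the interaction. Depth limits the assembly factors most, with 2 counts of Ndufaf2 in 1 library.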
